A study of Homo sapiens with 6 samples.

Results

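The 4 human HOX clusters were examined in neural progenitor cells for H3K27me3, a histone mark of Polycomb repression, and for H3K4me3, a mark of active or poised promoters. Each cluster was taken as 1 window on genome build hg19. The windows were HOXA on chromosome 7 from 27130001 to 27245000, HOXB on chromosome 17 from 46605001 to 46810000, HOXC on chromosome 12 from 54330001 to 54452000, and HOXD on chromosome 2 from 176955001 to 177057000. A peak belonged to a cluster when it overlapped the window, a rule that uses position and no measured value. By this rule 240 of 142800 peaks were taken: 38 of 44022 H3K4me3 peaks in Low-Chir, 51 of 46793 in Boost-Chir, 65 of 25725 H3K27me3 peaks in Low-Chir and 86 of 26260 in Boost-Chir.

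H9 (WA-09) is an established line of human embryonic stem cells. It was directed toward midbrain dopamine neurons, and the progenitors of day 11 were used. Both conditions started in medium with sonic hedgehog (SHH C25II), the pathway inhibitors LDN and SB431542, the Rock inhibitor Y-27632 and 0.7 µM CHIR99021, which inhibits the kinase GSK3 and so activates WNT signalling. From day 4 to day 10 the Boost-Chir cells received 7.5 µM CHIR99021, and the dose of that step for Low-Chir is not given by its labels. From day 10 both had 3 µM CHIR99021 with BDNF, GDNF, ascorbic acid, TGFβ3 and dibutyryl cAMP. Chromatin immunoprecipitation and sequencing was done on 1 library per mark and condition, so no difference below has a replicate check and none was tested.

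HOX genes encode homeodomain transcription factors that give cells their position along the head-to-tail axis. They lie in clusters, and their order along the chromosome follows the order of the body regions in which they act, with low-numbered (anterior) genes used in the hindbrain and high-numbered (posterior) genes used further toward the tail. The midbrain lies in front of the HOX domain, and silent HOX clusters are a textbook target of the Polycomb complexes, of which PRC2 deposits H3K27me3. Where H3K4me3 lies within H3K27me3, the promoter is commonly called bivalent.

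The genes considered were 38 in number. Of the anterior groups they were HOXA2, HOXA3, HOXB1, HOXB2, HOXB3, HOXD1 and HOXD3. Of the central groups they were HOXA4, HOXA5, HOXA6, HOXA7, HOXB4, HOXB5, HOXB6, HOXB7, HOXB8, HOXC4, HOXC5, HOXC6, HOXC8, HOXD4 and HOXD8. Of the posterior groups they were HOXA9, HOXA10, HOXA11, HOXA13, HOXB9, HOXB13, HOXC9, HOXC10, HOXC11, HOXC12, HOXC13, HOXD9, HOXD10, HOXD11, HOXD12 and HOXD13. No hg19 gene annotation was used here, so the labelled cell type could not be set against marker genes, peaks are placed by their distance from the anterior end of the window and no peak is assigned to a gene. HOXA and HOXB run from anterior to posterior with rising coordinates and HOXC and HOXD with falling ones.

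CpG-rich DNA is where both marks are most often found in stem cells and their progeny, and HOX promoters differ in it. The 250 bases before the start are shown for some genes, most of them at the ends of clusters. They are from the RefSeq table of build GRCh38.p14, read 5′ to 3′ on the gene's own strand. Capitals mark each CG dinucleotide. HOXA2 and HOXA13, on the minus strand, are the first and last listed genes of HOXA. HOXB1, on the minus strand, and HOXD1, on the plus strand, are the first listed genes of their clusters. HOXC4 and HOXC5, on the plus strand, have the same sequence in that table, printed once under HOXC4. By listed start they lie between HOXC8 and HOXC6, so this sequence is not from the anterior end of HOXC.
HOXA2: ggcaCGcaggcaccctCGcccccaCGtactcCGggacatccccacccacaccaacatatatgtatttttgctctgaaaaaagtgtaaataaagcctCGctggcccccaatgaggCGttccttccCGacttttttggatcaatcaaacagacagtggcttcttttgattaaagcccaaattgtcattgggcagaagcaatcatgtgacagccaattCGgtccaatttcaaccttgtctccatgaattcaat
HOXA13: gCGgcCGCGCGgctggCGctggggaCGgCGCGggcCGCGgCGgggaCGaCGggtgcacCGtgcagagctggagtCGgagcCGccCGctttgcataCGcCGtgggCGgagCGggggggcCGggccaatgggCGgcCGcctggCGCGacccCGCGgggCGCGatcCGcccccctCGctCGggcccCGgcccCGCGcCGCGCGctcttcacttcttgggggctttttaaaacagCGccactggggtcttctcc
HOXB1: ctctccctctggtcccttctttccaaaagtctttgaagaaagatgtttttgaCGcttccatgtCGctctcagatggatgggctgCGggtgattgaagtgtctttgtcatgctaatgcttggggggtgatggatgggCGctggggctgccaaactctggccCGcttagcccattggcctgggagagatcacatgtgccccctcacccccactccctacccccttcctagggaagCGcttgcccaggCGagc
HOXC4: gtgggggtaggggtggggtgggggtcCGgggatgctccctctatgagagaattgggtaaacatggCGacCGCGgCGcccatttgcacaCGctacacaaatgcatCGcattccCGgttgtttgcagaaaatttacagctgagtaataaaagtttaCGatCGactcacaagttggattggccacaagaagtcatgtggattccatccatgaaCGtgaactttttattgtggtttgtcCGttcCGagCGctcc
HOXD1: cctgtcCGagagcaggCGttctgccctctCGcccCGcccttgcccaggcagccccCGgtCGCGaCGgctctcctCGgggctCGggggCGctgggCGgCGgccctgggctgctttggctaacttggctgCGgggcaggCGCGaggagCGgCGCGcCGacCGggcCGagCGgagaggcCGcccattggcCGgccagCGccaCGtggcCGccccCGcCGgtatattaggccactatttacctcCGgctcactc

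The sequence before HOXA13 held 40 CG dinucleotides and that before HOXD1 held 31. HOXC4 had 14, HOXA2 had 8 and HOXB1 had 7. The ends of HOXA thus stood far apart in CpG content, with the posterior gene the richer.

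Promoters were listed for 20 of the 38 genes, 27 entries in all, because HOXA3 has 7 and HOXA10 has 2. The entries hold 26 distinct sequences, since that of HOXC4 and HOXC5 is the same. Their CG count ran from 0, at 1 of the HOXA3 promoters, to 40 at HOXA13, with a median of 19 against 11 over all 35116 promoters of the table. The CpG ratio is the observed number of CG over that expected from the C and G content. Its median was 0.888 for the HOX promoters and 0.558 over all. A ratio above 0.6 was found in 21 of the 27 entries (77.8%), or 20 of the 26 distinct sequences (76.9%), against 47.5% of all promoters. The lowest ratios after that HOXA3 entry were 0.287 at HOXD4, 0.343 at HOXB1 and 0.345 at another HOXA3 entry. Genes not listed there were HOXA5, HOXB2, HOXB3, HOXB4, HOXB5, HOXB6, HOXB7, HOXB8, HOXB9, HOXB13, HOXC6, HOXC8, HOXC9, HOXC10, HOXC11, HOXC12, HOXC13 and HOXD9. Several entries of 1 gene are not independent, and the sequence says nothing of which promoter these cells use.

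**Figure D1:**
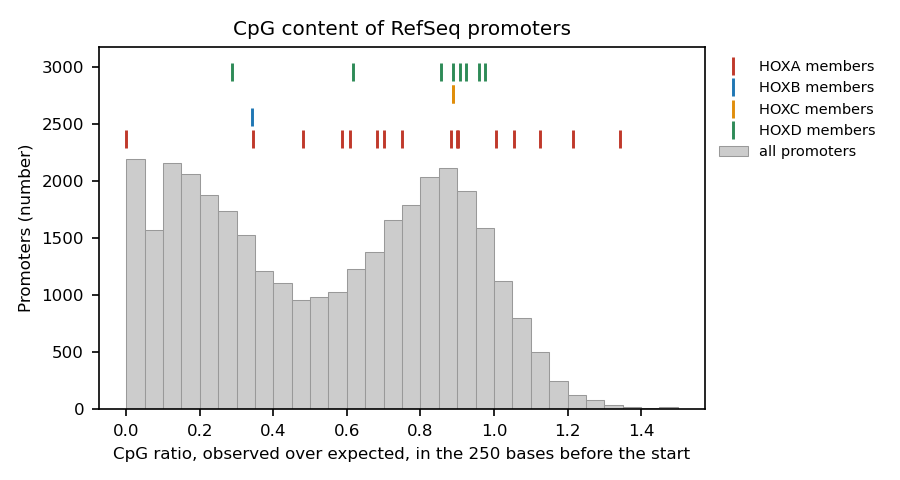
Histogram of the CpG ratio (observed over expected, horizontal axis) in the 250 bases before the start for all 35116 RefSeq promoters, with the number of promoters on the vertical axis; ratios above 1.5 are counted in the last bar. Coloured ticks mark the 27 promoter entries of HOX genes, by cluster, and 21 of them lie above 0.6.

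Depth and list size differed between the libraries. The caller's genome-wide background corresponded to 2.21 reads in Low-Chir and 2.67 in Boost-Chir for H3K4me3, a ratio of 1.21, and to 3.12 and 3.03 for H3K27me3, a ratio of 0.971. Over the genome H3K4me3 peaks covered 38.5 and 49.7 Mb, and H3K27me3 peaks 20.9 and 18.8 Mb, Low-Chir given first. These backgrounds, in reads, serve below as the unit of depth of each library.

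H3K27me3 covered almost all of HOXA, HOXC and HOXD in both conditions. Its length in HOXA was 114288 bp under Low-Chir, or 99.4% of the window, and 113797 bp under Boost-Chir, or 99.0%. In HOXC it covered 121812 and 121683 bp, or 99.8% and 99.7%. In HOXD it covered 101290 and 101034 bp, or 99.3% and 99.1%. The 3 clusters, from their anterior to their posterior genes, were thus under the mark with at most 1203 bp of a window left free. HOXB was covered less, at 167301 and 167599 bp, or 81.6% and 81.8%.

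The length was nearly equal between the conditions. Boost-Chir over Low-Chir was 0.996 in HOXA, 1.002 in HOXB, 0.999 in HOXC and 0.997 in HOXD. Over the 4 windows the mark covered 504691 bp for Low-Chir against 504113 bp for Boost-Chir, a ratio of 0.999, while the ratio of the whole lists was 0.901. A window covered to its edges cannot show a gain, and the small difference of -578 bp, Boost-Chir minus Low-Chir, changed sign with 2 of 5 alternative settings.

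**Figure D2:**
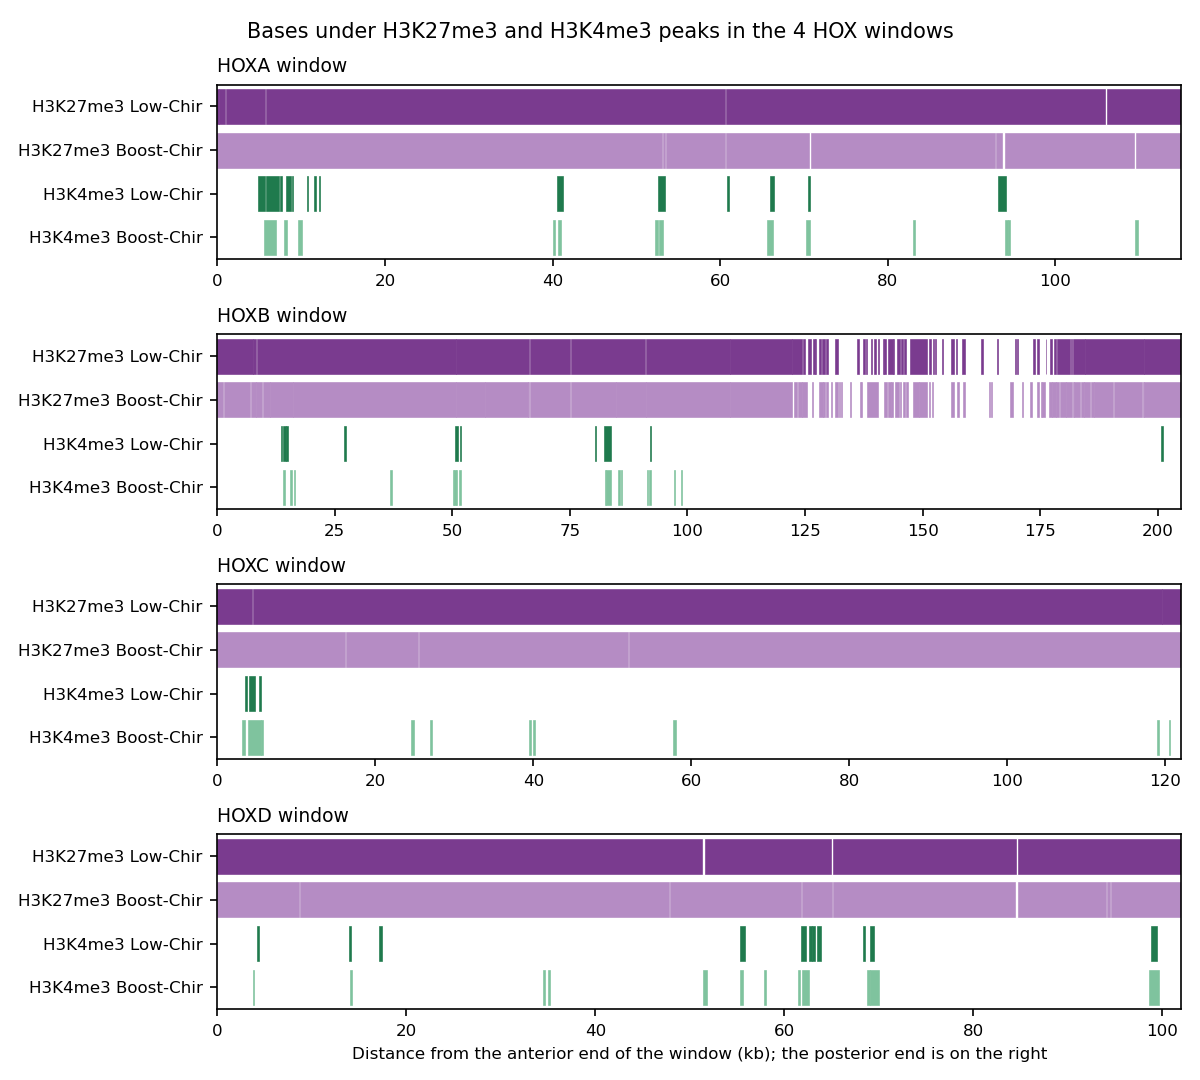
Bases under peaks (filled) along each HOX window, in kb from the anterior end, for H3K27me3 (purple) and H3K4me3 (green) in Low-Chir (dark) and Boost-Chir (light), 1 library each. H3K27me3 fills HOXA, HOXC and HOXD, and is broken up in HOXB between about 122 and 185 kb. In Boost-Chir a few more small gaps follow up to about 191 kb. H3K4me3 is short and scattered beneath H3K27me3, and gaps of about 100 bp are thinner than a drawn line.

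The posterior part of HOXB was the exception. This cluster differs from the others in that HOXB13 lies far from its neighbour HOXB9. In Low-Chir a stretch of 62.4 kb, from 122 to 185 kb after the anterior end, was covered to 41.0% by 42 peaks with a median length of 373 bp. The stretch anterior to it was covered to 99.3% and the stretch beyond it, at the posterior end, to 99.6%. In Boost-Chir the broken stretch was 68.3 kb long, from 122 to 191 kb, and 48 peaks covered 47.8% of it, with 98.7% and 99.0% on either side. No H3K4me3 peak lay in it in either condition. The interval was chosen after the peaks had been seen, by its lower cover. Its end differed between the conditions, so 41.0% and 47.8% are shares of unlike intervals. Past 185 kb the Boost-Chir stretch held only gaps of 55, 63 and 94 bp. There the 5 kb parts from 185 and from 190 kb were covered to 97.6% and 98.1% in Boost-Chir.

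Single peaks were among the longest of their lists. The longest H3K27me3 peak of HOXC, 115.1 kb from 54332465 to 54447522, ranked 1 of 25725 in Low-Chir, and that of Boost-Chir, 88.2 kb from 54311719 to 54399874, ranked 1 of 26260. The longest peaks of HOXA, 54.7 and 54.0 kb, ranked 3 and 2. HOXD followed with 53.0 and 39.1 kb, rank 4 in both lists, and HOXB with 42.4 and 34.6 kb, rank 6 in both. The longest peaks of HOXB, HOXC and HOXD were thus shorter in Boost-Chir, by far more than the covered length of the windows differed, and the windows held more peaks there.

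Enrichment in the clusters was also near the top of the lists. The highest H3K27me3 fold enrichment, the authors' ratio over the local background, was 14.9 in HOXA, 14.5 in HOXB and 13.999 in HOXC in Low-Chir, which ranked 1, 2 and 4 of the list. HOXD reached 10.5, rank 63. In Boost-Chir the highest folds were 11.1, 12.3, 12.2 and 10.3, which ranked 14, 2, 3 and 38. Counted per unit of depth, these summits had reads above background of 18.9 and 15.6 in HOXA, 18.2 and 15.2 in HOXB, 20.3 and 15.7 in HOXC, and 15.4 and 12.8 in HOXD, each first in Low-Chir and then in Boost-Chir. All 4 were lower in Boost-Chir, but the summits were at different places and were chosen as the highest. At the 47 Low-Chir peaks of the windows that overlapped a Boost-Chir peak, the median ratio of Boost-Chir to Low-Chir was 0.933, against 0.985 at 14646 peaks of the genome. With summits within 200 bp it was 0.957 at 16 peaks, against 0.9305 over the genome, so the order of the 2 medians turned with the way of matching. Of the 65 Low-Chir H3K27me3 peaks of the windows 52 were in HOXB, and 42 peaks lay in its broken stretch. Most of the 47 were thus HOXB peaks, and their median says little of the long peaks of the other clusters.

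**Figure D3:**
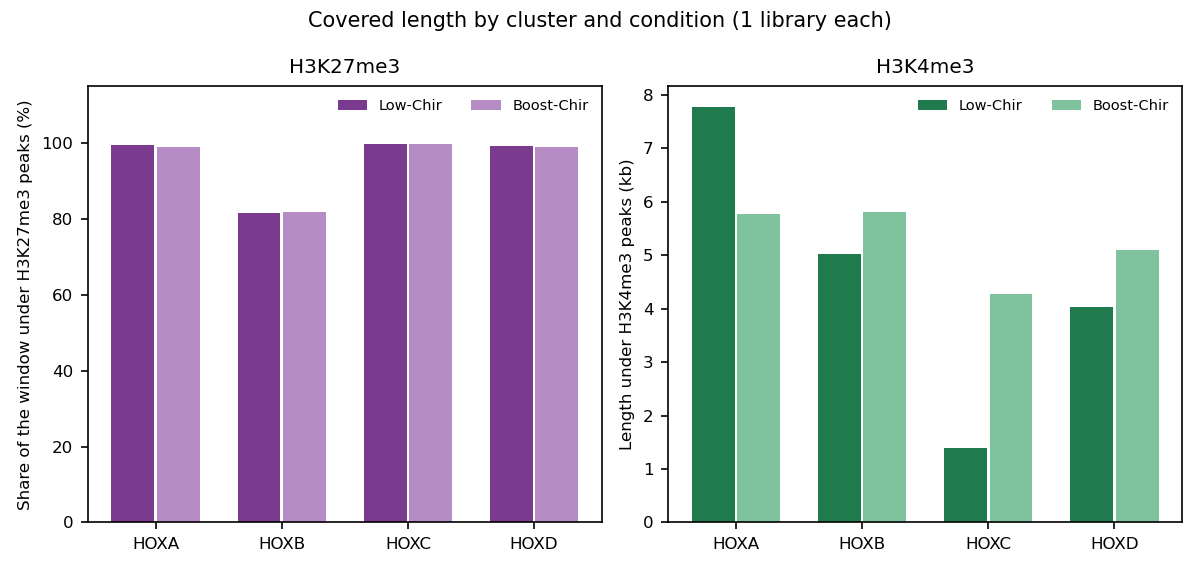
Left, share of each HOX window under H3K27me3 peaks (%), and right, length under H3K4me3 peaks (kb), in Low-Chir (dark bars) and Boost-Chir (light bars), 1 library each and so without error bars. The H3K27me3 bars of a cluster are nearly level, and the H3K4me3 bars differ most in HOXC, at 1.392 and 4.267 kb.

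The place of the clusters among all H3K27me3 domains was examined by joining the peaks of both conditions within 3 kb. This gave 7868 domains, of which 431 were large, with at least 10 kb under peaks in 1 condition or both. The HOX clusters made up the 4 longest by covered length in both conditions. HOXC came first in both, with 232.1 kb for Low-Chir against 226.3 kb for Boost-Chir. HOXA held 167.8 and 164.3 kb, rank 2 and 3. HOXB held 162.5 and 164.9 kb, rank 3 and 2, and HOXD held 134.8 and 135.3 kb, rank 4 in both. The fifth, at 109.7 and 108.5 kb, was outside the HOX clusters on chromosome 15, from 89890398 to 90033488. When peaks were joined within 1 kb or 10 kb the clusters still took ranks 1 to 4 in Low-Chir.

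The posterior end of HOXB formed a large domain of its own, with 59.1 and 61.0 kb, ranks 17 and 14. None of these 5 HOX domains differed 1.5-fold in length. Among all 431 large domains 12.3% were at least 1.5-fold shorter in Boost-Chir and 2.78% at least 1.5-fold longer. Boost-Chir over Low-Chir was 0.979 in HOXA, 1.015 and 1.03 in the HOXB domains, 0.975 in HOXC and 1.003 in HOXD. The other 424 large domains with peaks in Low-Chir had a median of 0.937, with quartiles of 0.809 and 1.02, so the HOX ratios lay inside that range or just above it.

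**Figure D4:**
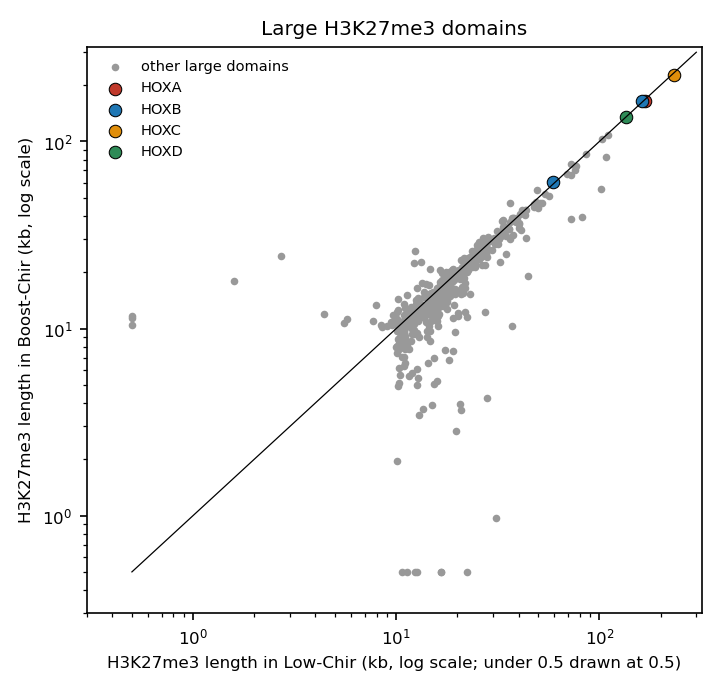
Length under H3K27me3 peaks in Low-Chir (horizontal, kb, log scale) against Boost-Chir (vertical, kb, log scale) for the 431 large domains; the line marks equal lengths and values under 0.5 kb are drawn at 0.5. The HOX domains (coloured) lie on the line, and 4 of their 5 points are at its upper end, from 134.8 to 232.1 kb in Low-Chir.

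The domains ran beyond the windows, mainly on the posterior side in HOXA and HOXD and on both sides in HOXC. In HOXA the mark began 1.80 and 1.84 kb before the anterior edge, Low-Chir given first here and below, and ran on for 53.2 and 53.4 kb past the posterior edge. In HOXC it ran on for 93.2 and 79.2 kb past the anterior edge and for 43.0 and 48.1 kb past the posterior edge. In HOXD it went 6.68 and 4.56 kb past the anterior edge and 30.9 and 37.4 kb past the posterior edge. In HOXB it ran on for 37.1 and 38.5 kb past the posterior edge, and for 5.17 kb in Low-Chir but 46.1 kb in Boost-Chir past the anterior edge. These ends depend on the join within 3 kb, which a few short peaks can carry further. In the 50 kb next to the anterior edge H3K27me3 covered 3.47% and 3.29% for HOXA, 8.37% and 6.44% for HOXD, 48.4% and 54.4% for HOXB, and 97.4% and 95.5% for HOXC.

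A finer comparison used bins of 5 kb, counting those whose covered share differed by at least 50% of the bin. For H3K27me3, 0 of 110 marked HOX bins were past this limit, against 1.14% of 15287 marked bins of the genome that were lower in Boost-Chir and 0.321% that were higher. The widest bin changes, in percent of the bin and as Boost-Chir minus Low-Chir, were -8.82 and 5.36 in HOXA, -2.20 and 2.70 in HOXC, and -4.62 and 6.50 in HOXD. HOXB was the most variable, from -15.3 to 24.5. For H3K4me3, 0 of 40 marked HOX bins were past the limit, against 0.0532% lower and 0.403% higher among 30047 bins. With shares so low over the genome, a count of 0 among so few bins is near the background.

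H3K4me3 took up little of the clusters. Its length in HOXA was 7775 bp under Low-Chir, or 6.76% of the window, and 5768 bp under Boost-Chir, or 5.02%. In HOXB it covered 5030 and 5799 bp, or 2.45% and 2.83%. In HOXC it covered 1392 and 4267 bp, or 1.14% and 3.498%. In HOXD it covered 4034 and 5093 bp, or 3.95% and 4.99%. By length HOXA thus had the most in Low-Chir and HOXC the least in both conditions. By share of the window HOXB was the lowest in Boost-Chir.

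Boost-Chir over Low-Chir was 0.742 in HOXA, 1.15 in HOXB, 3.07 in HOXC and 1.26 in HOXD, and 1.15 over all windows, while the whole H3K4me3 list was 1.29-fold longer in Boost-Chir. The Boost-Chir library was also the deeper by 1.21-fold. The part of depth in these ratios was not tested beyond scaling the reads. That left differences of -2.007 kb in HOXA, 0.769 kb in HOXB, 2.472 kb in HOXC and 1.059 kb in HOXD. The scaling did not alter the Boost-Chir length of HOXA, HOXB or HOXD at all, so it shows nothing there of how depth affects peak width. Limits differ by cluster. The HOXC difference of 2.875 kb kept its direction in 6 alternative settings, from 1.251 to 6.268 kb. The HOXA difference of -2.007 kb was -0.063 kb with the top 50% of each list. The HOXB difference was negative with the top 50% of each list and with a common limit on the q-value, and the HOXD difference was negative with joined peaks and with wider windows, so neither has a settled direction.

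The same comparison was made over whole domains. The domain of HOXC held 2.04-fold more H3K4me3 in Boost-Chir, and the domain at the posterior end of HOXB held 338 bp in Low-Chir and none in Boost-Chir. The other 3 HOX domains had ratios of 0.936 in HOXA, 1.24 in HOXB and 0.812 in HOXD. Past the 1.5-fold limit were thus 1 of 5 domains as longer and 1 of 5 as shorter. Among 356 large H3K27me3 domains with H3K4me3, 33.7% were at least 1.5-fold longer and 22.2% at least 1.5-fold shorter, so changes of this size were common. Peaks of H3K4me3 covered 5.50% and 5.15% of the HOXA domain, 5.22% and 4.24% of HOXD, 2.29% and 2.83% of HOXB and 0.955% and 1.95% of HOXC. The other large domains had medians of 5.19% and 6.52%.

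Where H3K4me3 was found, it lay inside H3K27me3. In Low-Chir 98.6% of its length in the windows was under H3K27me3 peaks of the same condition, and in Boost-Chir 98.8%. Of the H3K4me3 peaks, 34 of 38 and 45 of 51 were wholly inside and none was wholly outside. Over the whole lists 6.65% and 5.15% of the H3K4me3 length was under H3K27me3, and 13.4% and 11.97% of the peaks touched it. With the windows covered as they were, little room was left outside. Both marks were measured on bulk chromatin, so the same nucleosomes, different alleles and different cells cannot be told apart.

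These H3K4me3 peaks were weak and narrow. Their median fold was 4.24 in Low-Chir and 3.97 in Boost-Chir, against 5.00 and 4.50 over the lists. The median width was 352 and 307 bp, against 462 and 456 bp, and the median summit held 15 reads in both. At such counts many peaks were near the calling limit. A peak of the other condition overlapped 20 of the 38 Low-Chir peaks and 21 of the 51 Boost-Chir peaks. Over the genome 36789 of the 44022 Low-Chir peaks overlapped a Boost-Chir peak, so overlap was less frequent in the windows.

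To follow positions across conditions, the H3K4me3 peaks of both lists in a window were joined within 3 kb into 30 sites. Of these 17 held a peak in both conditions. A further 3 had one only under Low-Chir and 10 only under Boost-Chir. HOXA had 9 sites, 6 of them in both, HOXB 8 with 4 in both, HOXC 5 with 1 in both, and HOXD 8 with 6 in both. The share in both was 56.7%, against 74.8% of 635 sites in other large H3K27me3 domains and 87.3% of all 16580 sites. Sites in Low-Chir alone made up 10%, against 12.8% in the other large domains and 4.58% of all sites. Sites in Boost-Chir alone made up 33.3%, against 12.4% and 8.11%. With 1 library per condition these differences were not tested. All 13 sites seen in 1 condition had folds between 2.83 and 4.67 and 11 to 18 reads at the summit. The fewest reads at a shared site were 10 in Low-Chir and 14 in Boost-Chir, so some sites called in Boost-Chir alone had fewer reads than any shared site there.

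In HOXA the strongest site was the first, 4.86 to 12.3 kb after the anterior end (chromosome 7, 27134861 to 27142291). Each site is given by its peak with the highest −log10 q. Its fold was 8.39 under Low-Chir and 7.98 under Boost-Chir, with 27 and 30 reads, or 11.1 and 10.1 reads above background per unit of depth. Its covered length was 4207 bp under Low-Chir and 2161 bp under Boost-Chir. The difference was -2046 bp, while the other HOXA sites together differed by a net 39 bp. That sum held changes in both directions. The site at 93.1 kb went from 998 to 579 bp, and the site at 109.5 kb had 265 bp in Boost-Chir alone. The net HOXA difference in H3K4me3 was therefore close to that of the first site. This first site was shorter in Boost-Chir and not much lower at its summit. The remaining HOXA sites found in both conditions lay at 40.1, 52.2, 65.6, 70.2 and 93.1 kb. Their ratios per depth, Boost-Chir over Low-Chir, were 1.15, 0.808, 1.501, 1.03 and 1.24 in that order.

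HOXB held the strongest H3K4me3 summit of the 4 clusters in Low-Chir, at the site from 80.4 to 86.1 kb (chromosome 17, 46685388 to 46691064). The fold was 9.65 under Low-Chir and 8.69 under Boost-Chir, with 30 and 32 reads, or 12.6 and 10.9 per unit of depth. Even so, this summit ranked 6991 of 44022 and 10542 of 46793 in its lists, against ranks near the top for H3K27me3. Further sites in both conditions began at 13.4, 50.1 and 91.3 kb. Their ratios per depth were 0.614, 0.751 and 0.965, so by this measure all 4 shared HOXB sites were lower in Boost-Chir, with 15 to 32 reads at each summit. At the last of them the fold went the other way, 3.27 in Low-Chir and 4.20 in Boost-Chir, as did the length, 222 and 668 bp, with 15 and 16 reads. One site, at 201 kb in the stretch at the posterior end, had 14 reads in Low-Chir and no peak in Boost-Chir.

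In HOXC 1 site was marked in both conditions, 3.08 to 5.78 kb after the anterior end (chromosome 12, 54446226 to 54448917). Its length was 1392 bp under Low-Chir and 2242 bp under Boost-Chir. Its summit had a fold of 4.18 and 26 reads in Low-Chir and a fold of 6.35 and 34 reads in Boost-Chir, or 9.29 and 11.0 per unit of depth, a ratio of 1.19. The ratio depends on which Low-Chir peak stands for the site. With the peak of highest fold, 4.29 with 15 reads, it was 1.99. That was the first choice made here, and it was changed after this dependence had been seen. The other 4 HOXC sites were called in Boost-Chir alone, began at 24.5, 39.5, 57.6 and 119 kb, and had 13 to 18 reads each. They added 2025 bp, more than the first site did. A Low-Chir peak of 249 bp lay outside the window, near the last of them.

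HOXD carried its sites mainly in the middle and posterior parts. The site from 61.4 to 63.9 kb (chromosome 2, 176993148 to 176995567) had a fold of 5.43 and 19 reads in Low-Chir and 6.76 and 26 reads in Boost-Chir, or 7.38 and 8.61 per unit of depth. The most posterior site, from 98.6 to 99.7 kb (176957312 to 176958436), had a fold of 5.10 and 24 reads in Low-Chir and 5.99 and 21 reads in Boost-Chir, or 9.09 and 6.86 per unit of depth. Fold and reads thus ordered the conditions differently at that site, since the fold divides by a local background. The 2 sites nearest the anterior end, beginning at 3.74 and 13.9 kb, had ratios per depth of 0.673 and 0.639, with 14 to 17 reads each.

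**Figure D5:**
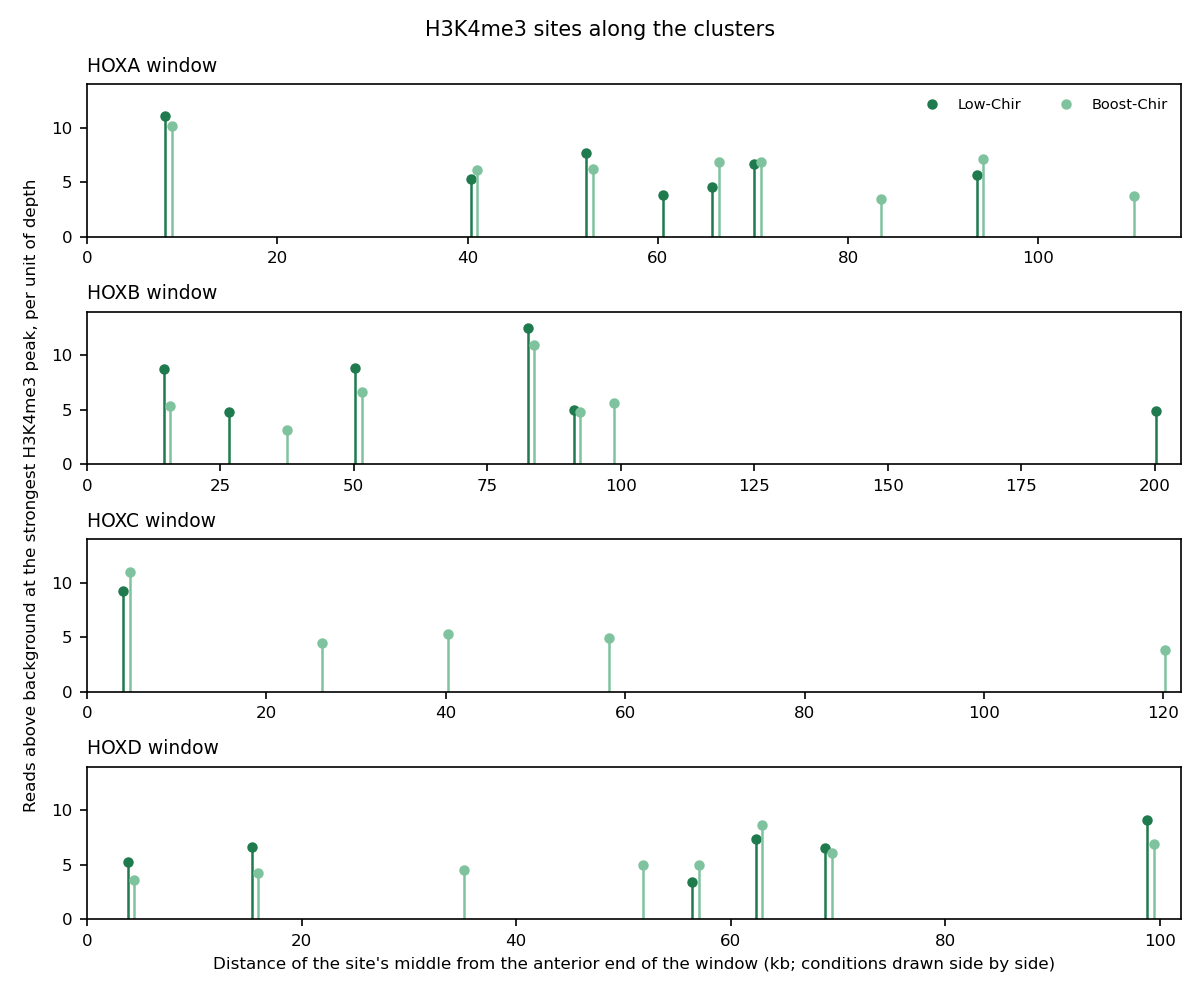
Reads above background at the strongest H3K4me3 peak of each of the 30 sites, per unit of library depth (vertical), against the distance of the site from the anterior end in kb (horizontal), in Low-Chir (dark) and Boost-Chir (light), 1 library each. Sites seen in 1 condition have 1 stem; the highest stems are in HOXB near 83 kb (12.6 and 10.9) and in HOXA and HOXC near the anterior end.

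Across the 17 shared sites the ratio per depth ran from 0.614 to 1.501 with a median of 0.932, and 7 of the 17 were above 1. Sites in other large H3K27me3 domains had a median of 0.986, with quartiles of 0.805 and 1.198, and all sites a median of 1.09. The HOX sites thus went both ways, with a median inside the quartiles of the other domains. With each window split into 3 equal parts from the anterior end, H3K4me3 covered 4.21, 2.57 and 0.998 kb of HOXA in Low-Chir and 2.16, 2.56 and 1.04 kb in Boost-Chir. In HOXC it covered 1.39, 0 and 0 kb in Low-Chir and 3.40, 0.468 and 0.400 kb in Boost-Chir. In HOXD the parts held 0.797, 1.88 and 1.36 kb and 0.449, 2.32 and 2.32 kb. HOXB held 2.72, 1.98 and 0.338 kb in Low-Chir and 2.68, 3.12 and 0 kb in Boost-Chir. H3K4me3 was thus mainly anterior in HOXC in both conditions and mainly in the middle and posterior parts of HOXD.

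Small gaps in the H3K27me3 of HOXA, HOXC and HOXD were looked at last. There were 10 gaps of at least 50 bp in Low-Chir, 1610 bp in all with the longest at 325 bp, and 17 in Boost-Chir, 2486 bp in all with the longest at 382 bp. Within 500 bp of an H3K4me3 peak lay 3 of the 10 and 7 of the 17, where 9.66% and 12.7% of the window length lay. By cluster these were 2 of 5 and 5 of 7 in HOXA, 1 of 2 and 1 of 3 in HOXC, and 0 of 3 and 1 of 7 in HOXD. Only 3 gaps were at the same place in both conditions, 1 in HOXA and 2 in HOXD, and the counts are too few to say more.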

How the data were processed

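ChIP-seq peak lists of 4 antibody libraries were used, H3K4me3 (Abcam ab8580 per the labels) and H3K27me3 in each condition, grouped by their titles. The 2 inputs were not analysed here. Reads went through cutadapt 1.6, BWA 0.7.12 and Picard on hg19, per the submitters' processing notes. The peak caller is not given in the sources used here. The names of the deposited peaks pair each antibody library with the input of its condition.

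The authors' lists give each peak a fold (a ratio over local background), −log10 of the p-value and of the q-value, the summit's offset and 1 score. The deposited score repeats the −log10 q-value and was not used. Reads at a summit were solved from the authors' fold and p-value, taking a Poisson tail with 1 pseudo-read on both sides, and 100% of peaks were solved within 0.001 of −log10 p. Covered length is the union of peaks in a window. The code was tested on simulated data.

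All listed genes are named once. Promoters are printed for the first and last gene found in the RefSeq table for the cluster with the most H3K4me3 length in Low-Chir (HOXA2, HOXA13). The same was done for the cluster with the least length in both conditions (HOXC4 and HOXC5, 1 sequence). HOXB1 and HOXD1 are also printed. The genes, windows and lists were chosen with earlier results of these data known. Each H3K4me3 site is represented by the peak with the highest −log10 q; the highest fold was used first and replaced after the values had been seen. Alternatives were other peak limits, joins, window edges, bins and matching. Python 3.11.15, numpy 2.4.6, scipy 1.17.1 and matplotlib 3.10.9 were used. Without replicates, variation between cultures or libraries was not measured, and the counts at each summit do not give the precision of a difference between the conditions.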

Additional observations from a re-analysis of the deposited data

How the results depend on the processing

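Values are Boost-Chir minus Low-Chir in kb unless stated, and causes of the shifts were not tested. The H3K4me3 difference over the 4 clusters, 2.696, was 1.01 with the top 50% of each list, 0.074 with a −log10 q of at least 5, 7.427 with peaks joined within 3 kb, 0.266 with windows widened by 10 kb, 1.893 with equal peak numbers and 2.293 with reads scaled to the Low-Chir depth. In HOXB it turned to -1.325 with the top 50% and to -0.676 with the q limit. In HOXD it turned to -0.338 with joined peaks and to -1.122 with wider windows. The H3K27me3 difference over the 4 clusters, -0.578, turned to 1.036 with the top 50% and to 1.662 with joined peaks. It was -0.946 with the q limit and -1.199 with wider windows, and in HOXB it turned to -0.07 with the q limit. With H3K27me3 peaks joined, 100% of the H3K4me3 length was inside in both conditions. With a limit of 25%, 1 H3K4me3 bin was past it, and with bins of 2 kb, 1 H3K27me3 bin was. The median ratio at matched H3K4me3 peaks was 0.961 (20 peaks) and turned to 1.03 with summits within 200 bp (13 peaks), and that of H3K27me3 moved from 0.933 to 0.957.

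The depth scaling and the choice of the peak that stands for a site were added after the data had been seen. By highest fold the ratio at the first HOXC site was 1.99 in place of 1.19 and at the first HOXB site 0.587 in place of 0.614. The other 15 shared sites and their median of 0.932 were equal under this choice, and all 17 were equal with the peak of most reads above background. No paired analysis was possible because there is only 1 library in each group. Most H3K4me3 summits rest on about 15 reads, which limits what a missing peak can show.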
